A study of Mus musculus with 50 samples.

Results

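The genes described here encode the machinery that carries newly made proteins into the endoplasmic reticulum (ER) and on to the Golgi. They were taken by a pattern on the gene symbols in the annotation of the arrays: signal recognition and translocation genes (Srp, Srpr, Sec61, Sec63, Ssr), signal peptidase genes (Spcs, Sec11), coat genes (Sec13 to Sec31, Sar1, Cop, Arf), cargo and retrieval receptors (Tmed, Lman, Ergic, Kdelr) and protein disulfide isomerases (Pdia, Erp). The pattern matched 77 of 13509 named genes, on 85 spots of the larger platform and 82 spots of the smaller one. Sec16a was only on the smaller platform. Sec1, Sec14l1 and Sec14l2 matched by name alone, since mouse Sec1 is a fucosyltransferase gene and the Sec14-like genes encode lipid-binding proteins.

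The series holds 50 spotted arrays of mouse airway RNA, each with a reference in the first channel and the sample in the second, in 10 groups of 5. In tracheal perfusate and in whole lung alike, there were 3 IL-13 groups of different genotype, IL13+Stat6+/-, IL13+Stat6-/- and IL13+Stat6-/-Epi+ (called Stat6+/-, Stat6-/- and Epi+ here), and 1 group each labelled OVA, for ovalbumin, and PBS. IL-13 is a cytokine of allergic airway disease and Stat6 is the transcription factor through which it signals, and the title of the series puts the question as which changes come from IL-13 acting on airway epithelium itself. No group had a Stat6 genotype without IL-13, and the labels give no age and no genotype for the OVA and PBS animals. The labels give only the mark Epi+. In published mice of this kind the Scgb1a1 promoter drives IL-13 and a restored Stat6 in airway epithelial cells. Since the labels do not tie each array to an animal of its own, the p-values reflect only how far these arrays vary, part of which may be technical.

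Arrays had 15693 to 18655 spots with a value, and the array medians of the deposited log2 ratios ran from -0.96 to 0.30. All values below were centred on the array's median, so a level is a log2 ratio to the reference relative to the typical spot of that array. Il13 was higher than in PBS in all 3 IL-13 groups of perfusate, by 1.73 to 2.72, which is the basis for reading the ratio as sample over reference, since the direction is not stated. The Stat6 probe did not separate the genotypes (Stat6+/- minus Stat6-/- was -0.10 ± 0.14 in perfusate and -0.19 ± 0.28 in whole lung, SE), and where it lies relative to the disrupted part is not stated. In perfusate Il13 itself was not equal between these groups, with a difference of -0.99 ± 0.21 (adjusted p = 0.0118, limma). Arrays low in the Y-linked Eif2s3y (below -0.9) and Uty (below -0.8) were Stat6-/- arrays 10, 11 and 12 and Epi+ array 16 of perfusate, and Stat6-/- arrays 1 and 2 and OVA array 5 of whole lung, and counts are also given without them. Whole lung Epi+ array 6 read -0.92 for Eif2s3y but had no Uty value, and was not counted among these arrays. Fewer cells of a type and less RNA per cell cannot be told apart in RNA of whole tissue.

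A secreted protein enters the ER through the Sec61 channel, guided there by the signal recognition particle, and loses its signal peptide to the signal peptidase. Disulfide isomerases form and rearrange its disulfide bonds. COPII vesicles, built by Sar1, Sec23, Sec24, Sec13 and Sec31, carry it forward to the Golgi, with p24 proteins (Tmed) and lectins such as Lman1 as cargo receptors. COPI vesicles, which need an Arf GTPase, return escaped material, and the KDEL receptors recognise the retrieval signal of ER residents. Mucus-producing airway cells, plasma cells and alveolar type 2 cells are known for a large secretory load. The unfolded protein response, with the factors Xbp1 and Atf6, raises many of these genes when folding demand grows.

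Promoters of 5 members are shown because they carry, or lack, the short elements to which the Xbp1, Atf6 and Stat6 factors are known to bind. Capitals mark the match, and each line reads 5′ to 3′ on the strand of the gene. In whole lung Stat6+/- arrays, Sec24d was called higher against both Stat6-/- and Epi+ arrays. Sec61g was called higher there against Epi+ arrays only, not against Stat6-/- arrays. Pdia4 had the highest called difference against whole lung Stat6-/- arrays. Kdelr3 was the member called between Stat6+/- and Stat6-/- perfusate, and Pdia6 held the full ER stress element.
Sec24d: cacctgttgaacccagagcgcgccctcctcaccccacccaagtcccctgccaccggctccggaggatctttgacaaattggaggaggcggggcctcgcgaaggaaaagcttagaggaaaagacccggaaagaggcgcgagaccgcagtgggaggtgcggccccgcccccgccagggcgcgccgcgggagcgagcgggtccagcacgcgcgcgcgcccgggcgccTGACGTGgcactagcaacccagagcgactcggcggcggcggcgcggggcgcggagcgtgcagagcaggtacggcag
Pdia4: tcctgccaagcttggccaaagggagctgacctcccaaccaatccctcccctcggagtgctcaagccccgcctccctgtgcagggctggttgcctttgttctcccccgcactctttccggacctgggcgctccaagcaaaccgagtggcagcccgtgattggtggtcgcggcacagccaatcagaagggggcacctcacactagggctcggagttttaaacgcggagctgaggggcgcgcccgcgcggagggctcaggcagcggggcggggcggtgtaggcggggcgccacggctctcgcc
Sec61g: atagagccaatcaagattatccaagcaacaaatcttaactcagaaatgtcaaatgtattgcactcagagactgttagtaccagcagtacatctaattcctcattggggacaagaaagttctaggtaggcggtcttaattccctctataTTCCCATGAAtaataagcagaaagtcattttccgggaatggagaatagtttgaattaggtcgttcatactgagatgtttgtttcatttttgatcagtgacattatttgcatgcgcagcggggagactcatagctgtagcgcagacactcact
Kdelr3: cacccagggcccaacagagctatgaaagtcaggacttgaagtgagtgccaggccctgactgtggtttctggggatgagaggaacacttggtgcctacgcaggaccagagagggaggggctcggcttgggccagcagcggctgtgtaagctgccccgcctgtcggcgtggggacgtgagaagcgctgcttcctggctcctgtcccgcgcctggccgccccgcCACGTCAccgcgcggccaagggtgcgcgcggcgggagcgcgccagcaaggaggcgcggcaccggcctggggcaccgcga
Pdia6: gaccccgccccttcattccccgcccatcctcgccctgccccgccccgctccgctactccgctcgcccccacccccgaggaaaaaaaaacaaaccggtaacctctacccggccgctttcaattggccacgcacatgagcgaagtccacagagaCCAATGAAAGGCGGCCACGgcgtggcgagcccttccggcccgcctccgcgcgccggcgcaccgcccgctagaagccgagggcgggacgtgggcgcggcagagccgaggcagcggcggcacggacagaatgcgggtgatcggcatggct
The windows are 300 bases around the RefSeq start on GRCm38.p6, at chr3:123267246-123267545, plus strand for Sec24d, chr6:47813463-47813762, minus strand for Pdia4, chr11:16508435-16508734, minus strand for Sec61g, chr15:79516158-79516457, plus strand for Kdelr3 and chr12:17266339-17266638, plus strand for Pdia6. Both strands were searched, and a window was found for 64 of the 77 members. The core of the unfolded protein response element, TGACGTG, was in 8 of 64 member promoters (12.5%) and in 2.22% of 27025 genes with a window. Those 27025 genes were not limited to genes on the arrays, as the members are. Those 8 were Arf1, Copb1, Copb2, Kdelr3, Sec16b, Sec23a, Sec24d and Srpr. In Kdelr3 and 2 COPI genes, Copb1 and Copb2, the match lay on the other strand and reads CACGTCA. The ER stress element (CCAAT and CCACG with 9 bases between them) was in Pdia6 alone (1.56% of members, 0.137% of genes), and the second form (ATTGG and CCACG with 1 base between them) was in none of the members (0.0444% of genes). The Stat6 element (TTC and GAA with 4 bases between them) was in Arf5, Copz2, Pdia5 and Sec61g (6.25% of members, 8.01% of genes). Of the 9 members called in whole lung that had a window, Sec24d held the response element core and Sec61g the Stat6 element. A match is a description of letters, not of a bound site.

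Compared among groups of the same tissue and platform, the members stood out most in 1 place. In whole lung Stat6+/- arrays the median member lay at 0.23 to 0.98 per array, against -0.14 to 0.45 in Stat6-/- and -0.13 to 0.43 in Epi+ arrays, so 4 of the 5 Stat6+/- arrays were above every array of the other 2 groups. These ranges mix reference pools 3 and 4. In pool 4 the Stat6+/- arrays lay at 0.56 to 0.98 and those of the other 2 groups at 0.15 to 0.45. In pool 3 they lay at 0.23 and 0.46, against -0.14 to 0.04. In perfusate the corresponding ranges were 0.09 to 0.17, -0.03 to 0.11 and -0.04 to 0.07, against -0.06 to 0.08 in PBS. There all 5 Stat6+/- arrays also lay above every Epi+ and PBS array, by smaller amounts, but overlapped the Stat6-/- arrays. Whole lung OVA arrays ranged from -0.51 to -0.06 and PBS arrays from -0.16 to 0.02. The last pair was hybridised on the smaller platform against another reference pool, and perfusate arrays used reference preparations of their own. Levels are therefore not comparable between perfusate, the whole lung IL-13 groups and this pair, only within each.

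**Figure D1:**
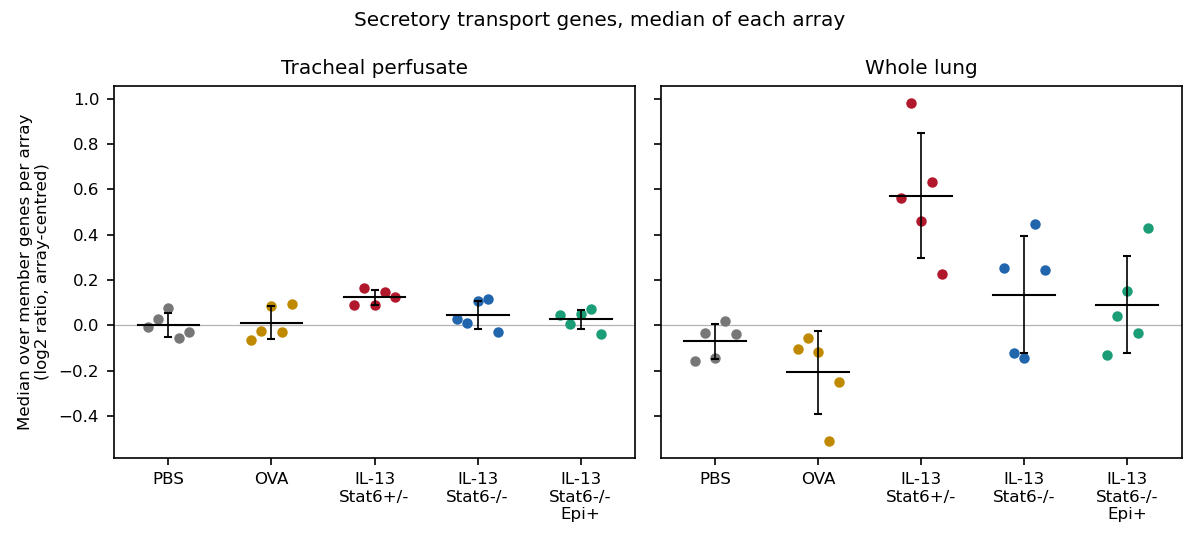
Median array-centred log2 ratio over the member genes on each array (points), with the mean and SD of 5 arrays (bars), by group and tissue. Whole lung Stat6+/- arrays run from 0.23 to 0.98, and every perfusate array lies between -0.07 and 0.17.

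Members also differed in how far their group means spread. In perfusate the range over the 5 group means had a median of 0.44 over members and 0.56 over all genes and spots, and in the 3 whole lung IL-13 groups 0.66 and 0.63. The widest in perfusate were Tmed5 (1.46), a p24 cargo receptor, Sec16b (1.15), which organises ER exit sites, Lman1l (0.95), a relative of the cargo lectin Lman1, Sec23a (0.95), an inner COPII coat subunit, and Tmed11 (0.94). In whole lung they were Sec24c (2.29), a cargo-selecting COPII subunit, Tmed6 (1.60), Lman1l (1.48), Kdelr3 (1.36) and Spcs3 (1.36). The range of Sec24c rested on the Epi+ arrays, which read -6.53, -3.37, -3.36, -1.39 and 0.25. Its Stat6-/- arrays lay between -1.73 and 0.27 and overlapped them, and 3 of 5 Stat6+/- arrays had a value.

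**Figure D2:**
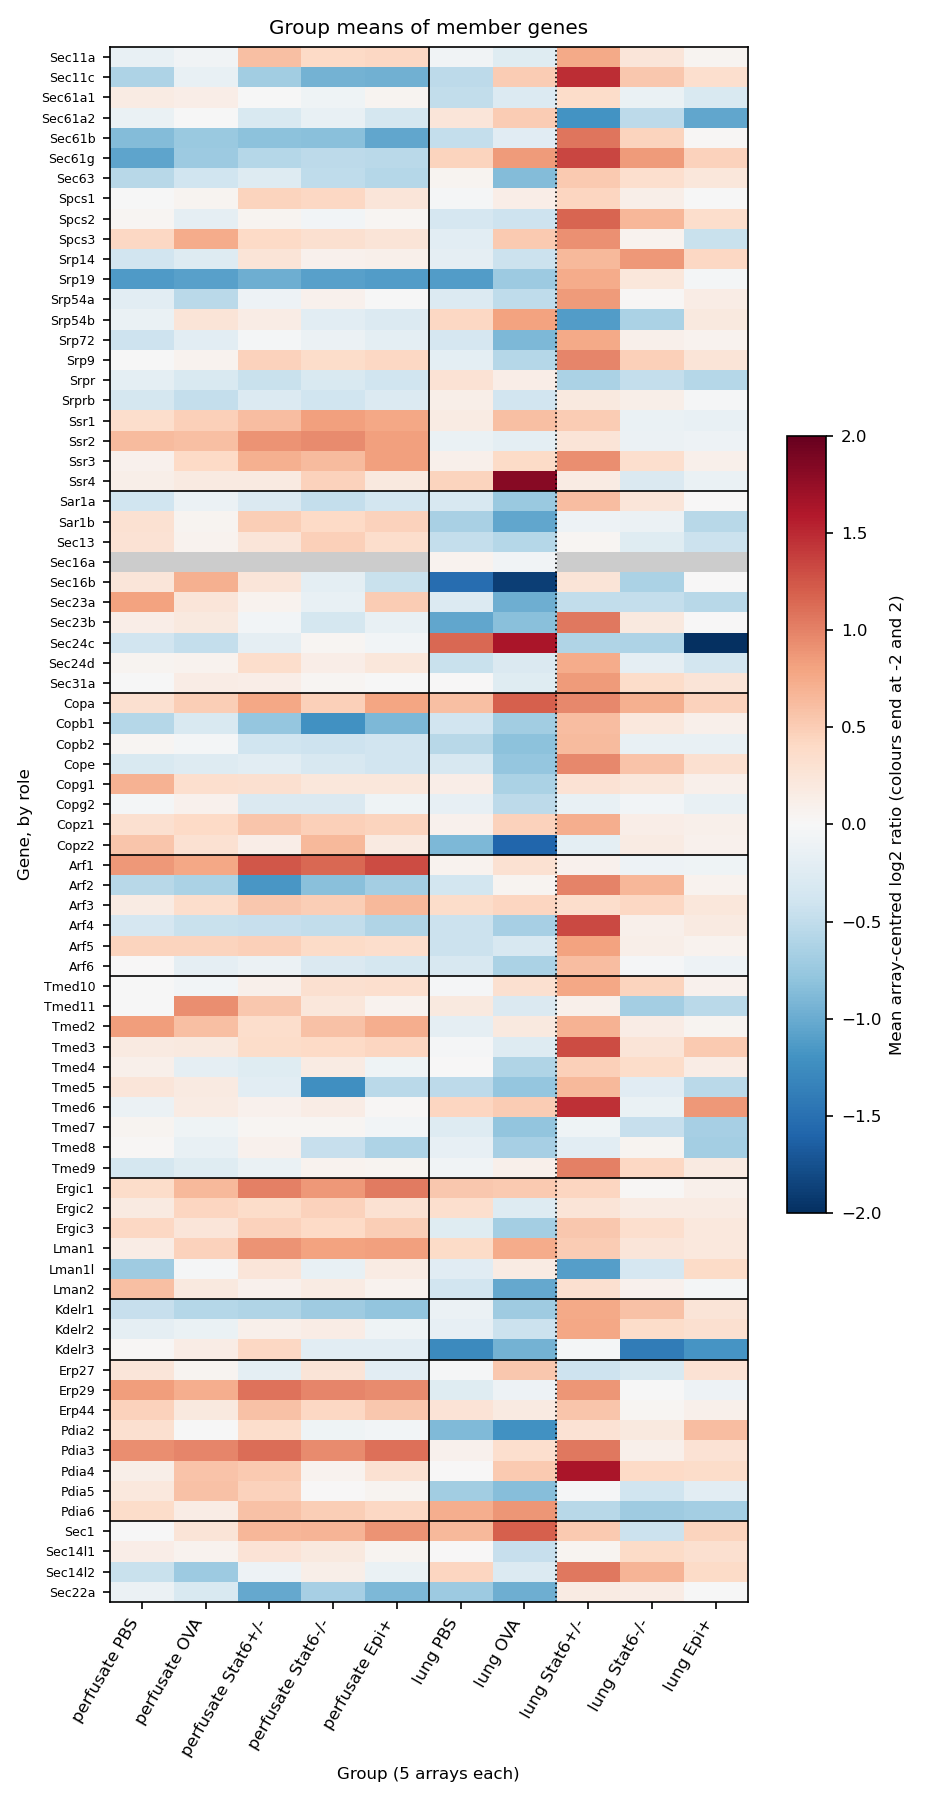
Mean array-centred log2 ratio of each member (rows, ordered by role) in each group (columns, up to 5 arrays), with grey for Sec16a, which the larger platform lacks. The dotted line parts the smaller platform from the larger one, and the whole lung Stat6+/- column is the one with most rows in red.

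In whole lung of IL-13 animals, most members had a higher estimate with a Stat6 allele than without one, but few were called. The calls were 3 of 8 isomerases and 1 each of 22 ER entry, 9 COPII and 10 p24 genes. Of 76 members tested, 6 rose and 0 fell in Stat6+/- against Stat6-/- arrays (7.89%; 5.01% of all 15115 genes and spots tested were called, 3.3% as higher), at an adjusted p under 0.05 in limma with Benjamini-Hochberg adjustment over all of them. They were the disulfide isomerases Pdia4, Pdia3 and Erp29, the p24 receptor Tmed3, the COPII subunit Sec24d and the translocon-associated subunit Ssr3. The difference was above 0 for 64 of 76 members, with a median of 0.39, against 47.3% and -0.04 over all tested. At an unadjusted p under 0.05, 31 members were higher and 0 lower (10.5% and 8.83% of all). Of 76 members, 4 had every Stat6+/- array above every Stat6-/- array, a share of 5.26% against 3.41% of all. They were Pdia3, Srp54a, Tmed6 and Ssr1, a translocon-associated subunit, the last 3 not called.

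Pdia4, an ER disulfide isomerase with a broad range of clients, read 0.88, 1.55, 1.59, 1.90 and 2.21 in Stat6+/- arrays. In Stat6-/- arrays it read 0.01, 0.28, 0.30, 0.49 and 0.90, so only the lowest Stat6+/- array touched the highest Stat6-/- one. The difference was 1.23 ± 0.20 (SE, n = 5 and 5), or 2.34-fold, with an adjusted p of 0.00387 in limma. Pdia3, which works with calnexin and calreticulin on glycoproteins, read 0.70, 0.76, 1.02, 1.17 and 1.65 with the allele and -0.21, -0.17, -0.05, 0.46 and 0.49 without it. The groups did not overlap, and the difference was 0.95 ± 0.21 (adjusted p = 0.0187, limma). Erp29, a redox-inactive relative that escorts secretory proteins, spread more widely. Its Stat6+/- arrays read -0.44, 0.68, 1.17, 1.43 and 1.55, and its Stat6-/- arrays -0.75, -0.52, 0.15, 0.44 and 0.63, so the groups overlapped through Stat6+/- array 4 (0.89 ± 0.23, adjusted p = 0.0418, limma). Of the 8 isomerase genes 7 had a difference above 0, the exception being Erp27 at -0.10, whose probes differed from each other (spot correlation 0.26). Pdia6 read -0.56 with the allele and -0.72 without it, a difference of 0.16 ± 0.37.

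Among the p24 receptors, Tmed3 read 0.76, 1.01, 1.14, 1.47 and 2.16 in Stat6+/- arrays. Its Stat6-/- arrays read -0.40, 0.04, 0.30, 0.45 and 0.93, and only the lowest Stat6+/- array lay within their range, below the highest of them. The difference was 1.04 ± 0.22 (adjusted p = 0.0146, limma). The largest estimate of all members belonged to a relative, Tmed6 (1.57 ± 0.68, adjusted p = 0.232, limma), which had a value on 4 Stat6+/- arrays, of 0.51, 0.96, 0.97 and 3.41. All 4 lay above the Stat6-/- arrays (-1.30 to 0.34), with 1 of them far above the rest, and the gene was not called. Of the 10 p24 genes 9 were above 0, with a median of 0.56, and Tmed8 was the lowest (-0.26).

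Of the coat genes, Sec24d, a COPII subunit that selects cargo, read 0.07, 0.16, 0.76, 1.00 and 1.75 with the allele. Without it the arrays read -0.97, -0.57, -0.21, 0.34 and 0.49, and the groups overlapped. The difference was 0.93 ± 0.23 (adjusted p = 0.0365, limma). Of the 9 COPII genes tested 8 were above 0 (median 0.37), and Sec23a was the lowest at -0.01. COPI genes had no call among 8 (2 higher and 0 lower at an unadjusted p under 0.05, limma), with a median of 0.32. Their highest was Copb2 at 0.78 ± 0.21 (adjusted p = 0.052, limma) and their lowest Copz2 at -0.36. Arf GTPases had no call among 6 in limma either (3 higher, 0 lower unadjusted), with Arf4 highest at 1.27 ± 0.46 on 4 Stat6+/- arrays and Arf3 lowest at -0.06.

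Among the ER entry genes 1 call stood beside many smaller estimates. Of 22, 18 were above 0 with a median of 0.51, 12 passed an unadjusted p of 0.05 as higher, and 1 was called. That gene was Ssr3, a subunit of the complex that assists the Sec61 channel, which read 0.44, 0.87, 1.00, 1.07 and 1.26 with the allele and -0.26, 0.04, 0.51, 0.68 and 0.71 without it. Its groups overlapped through Stat6+/- array 6 (0.59 ± 0.16, adjusted p = 0.0452, limma). Sec11c, a catalytic subunit of the signal peptidase, had the highest estimate of these genes (0.95 ± 0.30, adjusted p = 0.0895, limma). The lowest was Sec61a2, a channel gene, at -0.68 ± 0.52. The signal recognition genes Srp54a (0.83 ± 0.26) and Srp54b (-0.47 ± 0.58) had estimates of opposite sign, and as near-identical copies they may share signal. No KDEL receptor was called among 3 in limma (1 higher, 0 lower unadjusted). Kdelr3 had the highest estimate of them, 1.20 ± 0.38 (adjusted p = 0.0977, limma), with 4 Stat6+/- arrays at -1.25, -0.06, 0.27 and 0.88 and Stat6-/- arrays between -1.94 and -0.97. No lectin or ERGIC receptor was called among 6 (0 at an unadjusted p under 0.05, limma), with Ergic1 highest at 0.41 and Lman1l lowest at -0.76.

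These differences are relative to the array medians, whose own difference (Stat6+/- minus Stat6-/-) was -0.37. Without centring the member median was 0.02, with 42 of 76 above 0 and 0 called, against a median of -0.40 over all genes and spots. Within reference pool 3 the centred differences had a median of 0.38 with 61 of 76 above 0, and within pool 4 a median of 0.38 with 60. The count of 6 became 1 without the Stat6-/- arrays low in Y-linked transcripts, 3 without Stat6-/- array 1 or 4 or Stat6+/- array 3 or 5, 2 without Stat6-/- array 6, and 10 without Stat6+/- array 1.

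**Figure D3:**
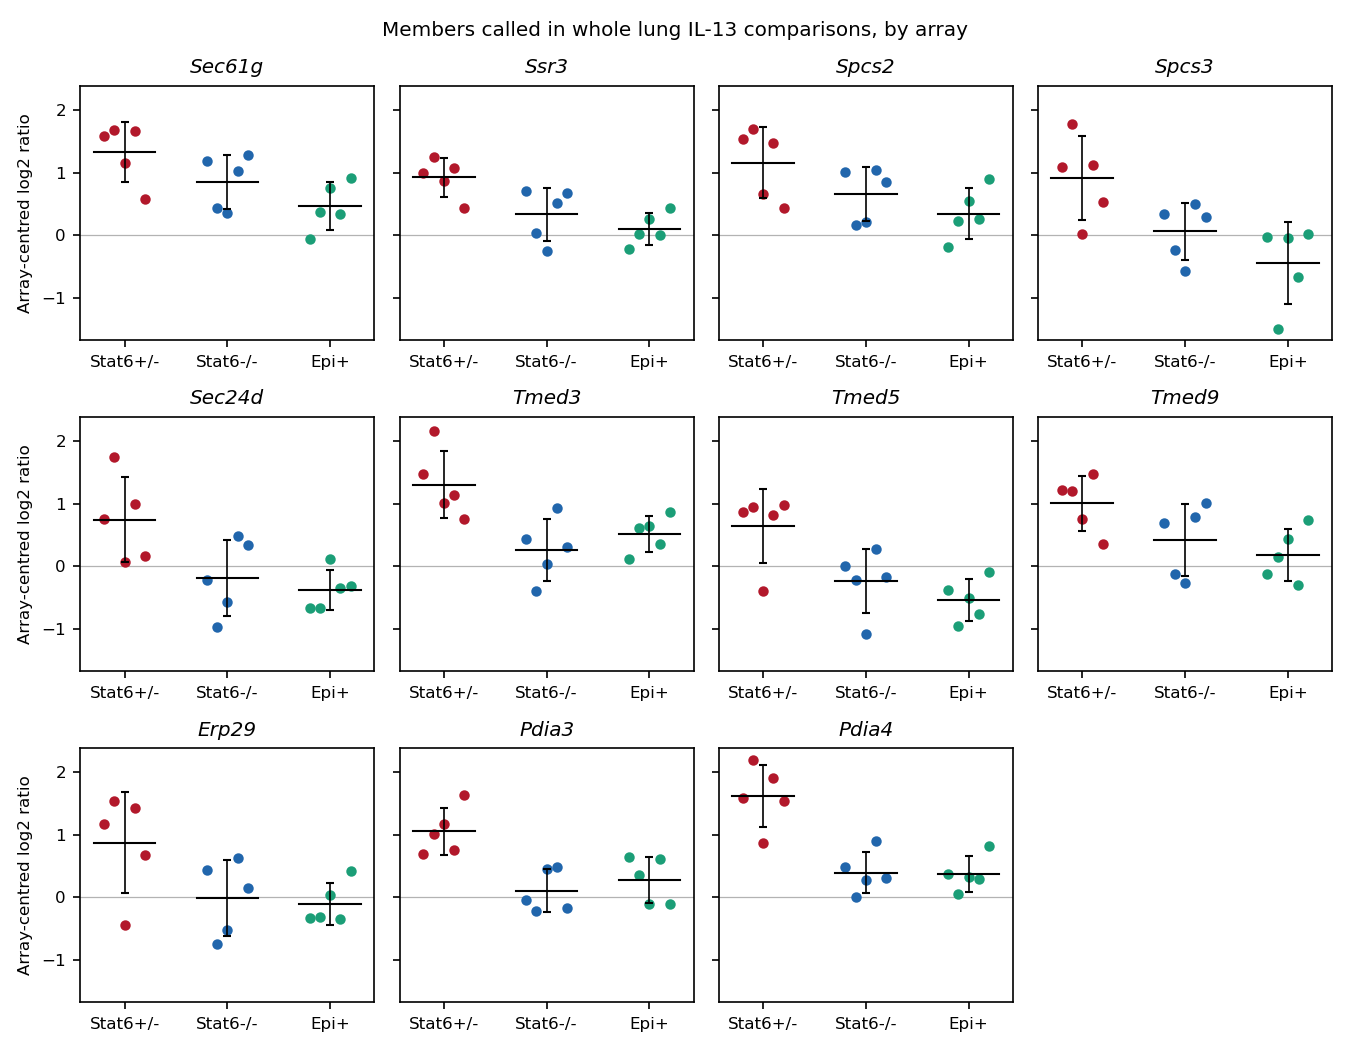
Array-centred log2 ratio on each array (points), with the mean and SD of 5 arrays (bars), for the 11 members called in a whole lung IL-13 comparison. Pdia4 lies at 0.88 to 2.21 in Stat6+/- arrays and at 0.01 to 0.90 in the others, while the groups of Tmed9 and Spcs2 overlap.

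The same Stat6+/- arrays were next set against Epi+ arrays, so the 2 comparisons share 5 arrays and are given side by side. Of 76 members 9 rose and 0 fell (11.8%; 3.55% of all 15115 tested were called, 2.46% as higher). The difference was above 0 for 69 members, with a median of 0.43, against 51.8% and 0.03 over all tested. At an unadjusted p under 0.05, 34 were higher and 1 lower, Lman1l (11.4% and 7.94% of all). Every Stat6+/- array lay above every Epi+ array for 7 members, 9.21% against 3.51% of all. Pdia4 (1.15 ± 0.21), Sec24d (0.95 ± 0.24), Pdia3 (0.86 ± 0.21) and Ssr3 (0.72 ± 0.16) were called in both comparisons, with adjusted p of 0.00952, 0.0432, 0.0433 and 0.0254 here (limma).

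The other 5 called members acted at ER entry or as p24 receptors. Spcs3, a signal peptidase subunit, read 0.03, 0.54, 1.10, 1.13 and 1.79 in Stat6+/- arrays. In Epi+ arrays it read -1.5, -0.66, -0.04, -0.02 and 0.02, so the groups stood just apart (1.19 ± 0.26, adjusted p = 0.0254, limma). Against Stat6-/- arrays, at -0.57 to 0.50, the difference of Spcs3 was 0.85 ± 0.26 (adjusted p = 0.0794, limma). Tmed5 read 0.82, 0.87, 0.96 and 0.99 in 4 Stat6+/- arrays and -0.40 in array 4, and -0.95, -0.77, -0.50, -0.37 and -0.09 in Epi+ arrays. Apart from that single array the groups were separate (1.07 ± 0.26, adjusted p = 0.0432, limma). Sec61g, the small subunit of the channel, had a difference of 0.73 ± 0.16 (adjusted p = 0.0265, limma). Its Stat6+/- arrays read 0.58, 1.16, 1.59, 1.67 and 1.69 and its Epi+ arrays -0.06, 0.34, 0.37, 0.76 and 0.92, with array 6 of Stat6+/- in the overlap. Tmed9 (0.66 ± 0.17, adjusted p = 0.0462, limma) and the signal peptidase subunit Spcs2 (0.65 ± 0.16, adjusted p = 0.0431, limma) overlapped more. Their Stat6+/- ranges were 0.37 to 1.49 for Tmed9 and 0.44 to 1.71 for Spcs2, against Epi+ ranges of -0.30 to 0.75 and -0.19 to 0.90.

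By role, all 10 p24 genes, all 9 COPII genes, all 6 Arf genes and 21 of 22 ER entry genes had a difference above 0 against Epi+ arrays, with medians of 0.66, 0.42, 0.62 and 0.57. COPI genes had 6 of 8 above 0 (median 0.37) and isomerases 6 of 8 (median 0.38). The difference of the array medians (Stat6+/- minus Epi+) was -0.21. Without centring the member median was 0.25 with 57 of 76 above 0 and 0 called. Quantile normalization also left 0 called, with a median of 0.39 and 66 above 0. The count of 9 was 4 without all arrays low in Y-linked transcripts, which enter the shared estimate of the spread, and leaving out 1 array moved it to 1 (Epi+ array 3 or 6), 3 (Stat6+/- array 5), 4 (Stat6+/- array 3) or 5 (Epi+ array 1).

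Between Epi+ and Stat6-/- whole lung no member was called (0 of 76; 0.0794% of all tested were, limma), and 0 were higher and 1 lower at an unadjusted p under 0.05 (1.82% and 2.38% of all). The difference was above 0 for 32 members (45.8% of all tested), with a median of -0.03 against -0.04 over all. Pdia4 differed by 0.07 ± 0.21, Pdia3 by 0.10 ± 0.21, Sec24d by -0.02 ± 0.24, Tmed3 by 0.38 ± 0.22 and Ssr3 by -0.13 ± 0.16. The 1 member at an unadjusted p under 0.05 was Sec24c (-2.54 ± 0.94), whose Epi+ arrays are given above. The highest was Tmed6 at 0.92 ± 0.71. These Stat6-/- arrays are also those of the comparison with Stat6+/- arrays.

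Other ER genes outside the set were also higher. Of 20 ER chaperone and folding genes 9 rose against Stat6-/- arrays and 8 against Epi+ arrays in whole lung, with medians of 0.64 and 0.82. Over all genes and spots tested, 3.3% and 2.46% were called higher in these comparisons. Hspa5, the main Hsp70 chaperone of the ER, differed by 1.51 ± 0.18 against Stat6-/- and by 1.51 ± 0.18 against Epi+ arrays. Agr2, a folding factor for mucins, differed by 4.67 ± 0.25 and 1.29 ± 0.25. Calr, Creld2, Dnajb11, Dnajb9, Hsp90b1 and Manf were called in both, and Sdf2l1 (1.62 ± 0.36) against Stat6-/- arrays. The lowest were Dnajc10 against Stat6-/- arrays (-0.40) and Hyou1 against Epi+ arrays (-0.25).

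Of 16 unfolded protein response regulators 2 rose against Stat6-/- arrays and 2 against Epi+ arrays. Xbp1 was in both, by 1.15 ± 0.22 and 1.36 ± 0.22. Derl3, an ER-associated degradation factor, was called in the first (1.93 ± 0.50) and Herpud1, another, in the second (0.89 ± 0.21), and Atf6 (-0.11) was the lowest in the first. Of 11 oligosaccharyltransferase and translocon partners 1 rose in the first comparison, Stt3a (0.71 ± 0.19), a catalytic subunit, and none in the second (limma; 6 higher and 0 lower unadjusted). Of 33 ER to Golgi tethers, SNAREs and coat partners 2 rose in each, the cargo receptor Surf4 (1.15 ± 0.21 and 1.08 ± 0.21) and the tether Uso1 (0.84 ± 0.21 and 0.85 ± 0.21). None of 19 post-Golgi genes was called in either (limma; 1 higher and 2 lower, then 5 higher and 1 lower, unadjusted), with medians of 0.13 and 0.12.

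Markers of several cell types moved with the same arrays. Macrophage markers (9 of 12 measured) had a mean level of 2.18 to 4.08 in Stat6+/- arrays, -0.29 to 0.26 in Stat6-/- and -0.52 to 0.75 in Epi+ arrays, with 6 called higher against Stat6-/- and 5 against Epi+. The highest was Mmp12 (6.85 ± 1.08). Mucous cell markers lay at 1.87 to 2.89, -0.15 to 0.39 and 1.07 to 2.02 in the same order, with 6 of 12 and 3 of 12 tested called higher. The mucous list shares Agr2 with the ER chaperone list, and Ern2 and Creb3l1 with the unfolded protein response list. Alveolar type 2 markers had 2 of 5 higher against Stat6-/- arrays, and plasma and B cell markers 0 of 10 (limma; 3 higher, 0 lower unadjusted). Club cell and endothelial markers each had 3 lower, of 9 and 7. Basal and ciliated cell lists had none called among 5 and 9 (limma; 1 and 0 higher, 0 lower unadjusted). Neutrophil, T cell and fibroblast lists each had 1 higher, of 7, 7 and 8, and the eosinophil and mast cell list had Rnase2a higher and Siglecf lower, of 8. The part of these cells in the members' differences was not tested.

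In tracheal perfusate the members moved little with Stat6. Of 76 tested, 1 rose and 0 fell in Stat6+/- against Stat6-/- arrays (1.32%; 3.07% of all 15830 tested were called, 1.09% as higher). The difference was above 0 for 52, with a median of 0.08, against 47.5% and -0.02 over all, and 4 were higher and 1 lower at an unadjusted p under 0.05 (5.67% and 7.25% of all). The called member was Kdelr3, a KDEL receptor, which read 0.05, 0.12, 0.27, 0.66 and 0.95 with the allele and -0.49, -0.43, -0.33, -0.05 and 0.22 without it. The groups overlapped as a whole, but within each of the 5 reference preparations the Stat6+/- array was the higher, by 0.38 to 0.73 (0.63 ± 0.14, adjusted p = 0.0171, limma). Epi+ arrays of Kdelr3 read -0.65, -0.27, -0.22, -0.15 and 0.26, a difference of 0.01 ± 0.14 from Stat6-/- and of 0.62 ± 0.14 from Stat6+/- (adjusted p = 0.159, limma). The call for Kdelr3 was lost as deposited (0.75, adjusted p = 0.279; 0.00287 to 0.312 over the alternatives, limma), without the reference block, in a fit of only these groups, without the arrays low in Y-linked transcripts, and without Stat6-/- array 10, 13 or 14 or Stat6+/- array 6. Without Stat6+/- array 5 or Stat6-/- array 12, 2 members were called. Taken by accession, 1 of the probes of the isomerase relative Erp27 was also called, and lower (-0.73 ± 0.19, adjusted p = 0.0466; -0.71 ± 0.19 against PBS, adjusted p = 0.0338, limma), while its other accession (-0.16 ± 0.53) and the gene's mean (-0.44 ± 0.32) were not.

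Tmed5 had the largest perfusate estimate (1.02 ± 0.47, adjusted p = 0.364, limma), with Stat6-/- array 13 at -3.27 and the other Stat6-/- arrays between -1.59 and 0.07. Pdia4, the isomerase with the clearest whole lung difference, read 0.23, 0.42, 0.43, 0.66 and 0.85 with the allele and -0.19, -0.15, -0.14, 0.28 and 0.53 without it. The groups overlapped and the difference of 0.46 ± 0.19 was not called (adjusted p = 0.288, limma). Copz2, a COPI subunit, had the lowest estimate (-0.52 ± 0.14, adjusted p = 0.0506, limma). Between Epi+ and Stat6-/- perfusate, 0 of 76 members were called (0.474% of all; 1 higher and 1 lower unadjusted, 3.08% and 4.43% of all, limma), with 34 above 0 (47% of all) and a median of -0.03. Between Stat6+/- and Epi+ perfusate 0 were called (0.0379% of all; 3 higher and 0 lower unadjusted, 3.78% and 3.2% of all, limma), with 50 above 0 (48.4% of all) and a median of 0.07. Mucous cell markers lay at 0.39 to 1.05 in Stat6+/-, -0.54 to 0.04 in Stat6-/- and 0.36 to 0.97 in Epi+ perfusate, with 5 of 14 called higher in the first against the second. In the same comparison 2 of 9 ciliated markers were called higher, and 3 of 9 club cell and 1 of 5 alveolar type 2 markers lower. No macrophage marker was called there among 9 (limma; 2 higher and 1 lower unadjusted). The part of these cells was not tested. Of the ER chaperone genes, 2 of 20 were higher in perfusate, Manf (0.77 ± 0.19) and Dnajb9 (0.76 ± 0.20).

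Against PBS perfusate, 3 of 76 members were higher in Stat6+/- arrays (7.13% of all 15830 were called, 2.89% as higher) and 2 in Epi+ arrays (3.01% of all, 1.38% as higher). At an unadjusted p under 0.05, 13 were higher and 4 lower in Stat6+/- arrays (9.79% and 12.7% of all), and 12 and 7 in Epi+ arrays (9.56% and 10.8%). The difference was above 0 for 52 and 42 members (47.7% and 45.6% of all). These comparisons share the 5 PBS arrays, and the groups differ in IL-13 as well as in whatever genotype the PBS animals had. Sec11a, a catalytic subunit of the signal peptidase, read 0.37, 0.44, 0.63, 0.69 and 0.87 in Stat6+/- and 0.11, 0.13, 0.34, 0.66 and 0.81 in Epi+ arrays. PBS arrays read -0.37, -0.17, -0.15, -0.06 and 0.05, below all of them (0.74 ± 0.14, adjusted p = 0.00323, and 0.55 ± 0.14, adjusted p = 0.0398, limma). In Stat6-/- arrays Sec11a read 0.02, 0.27, 0.42, 0.57 and 0.68, with a difference from PBS of 0.54 ± 0.14 that was not called (adjusted p = 0.0878, limma). Sec1, the fucosyltransferase gene, differed from PBS by 0.67 ± 0.19 in Stat6+/- and by 0.90 ± 0.19 in Epi+ arrays (adjusted p = 0.0349 and 0.0135, limma). Its Stat6-/- arrays had a difference of similar size, 0.68 ± 0.19 (adjusted p = 0.0934, limma). Lman1l was called in Stat6+/- arrays (0.95 ± 0.25, adjusted p = 0.0263, limma), where it read -0.42, -0.20, 0.10, 0.79 and 0.96 against -1.27, -1.04, -0.64, -0.52 and -0.05 in PBS. In Epi+ arrays the difference of Lman1l from PBS was of similar size, 0.86, and was not called.

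Cell type markers moved in these comparisons too. In Stat6+/- against PBS perfusate, 5 of 14 mucous, 2 of 9 ciliated and 2 of 7 T cell markers were called higher, and 3 of 9 club cell, 2 of 5 alveolar type 2 and 3 of 8 fibroblast and smooth muscle markers lower. In Epi+ against PBS, 3 mucous, 1 ciliated and 1 of 9 macrophage markers were higher, and 2 club cell, 2 alveolar type 2 and 1 fibroblast and smooth muscle marker lower. Their part in the members' differences was not tested.

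Stat6-/- against PBS perfusate gave 0 calls among the members (0.619% of all were called, limma), with 13 higher and 6 lower at an unadjusted p under 0.05 (10.1% and 9.34% of all) and 42 above 0 (47.7%). Leaving out PBS array 25 raised the counts against PBS from 3 to 8 for Stat6+/- and from 2 to 5 for Epi+, and leaving out Stat6-/- array 12 gave 6 in place of 0 for Stat6-/- (1 without PBS array 25). Of the perfusate arrays, PBS array 25 and Stat6-/- array 12 had the lowest mean correlations with their own groups, 0.06 and 0.10. Whether the counts moved for that reason was not tested. The count for Stat6+/- was 1 without its array 4 or 7 or PBS array 22 or 24, and that for Epi+ was 1 without its array 16, 17, 18 or 19 or PBS array 22, 23 or 24. Without all arrays low in Y-linked transcripts the counts were 7 for Stat6+/- and 1 for Epi+. Without centring no member was called in any of the 3.

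**Figure D4:**
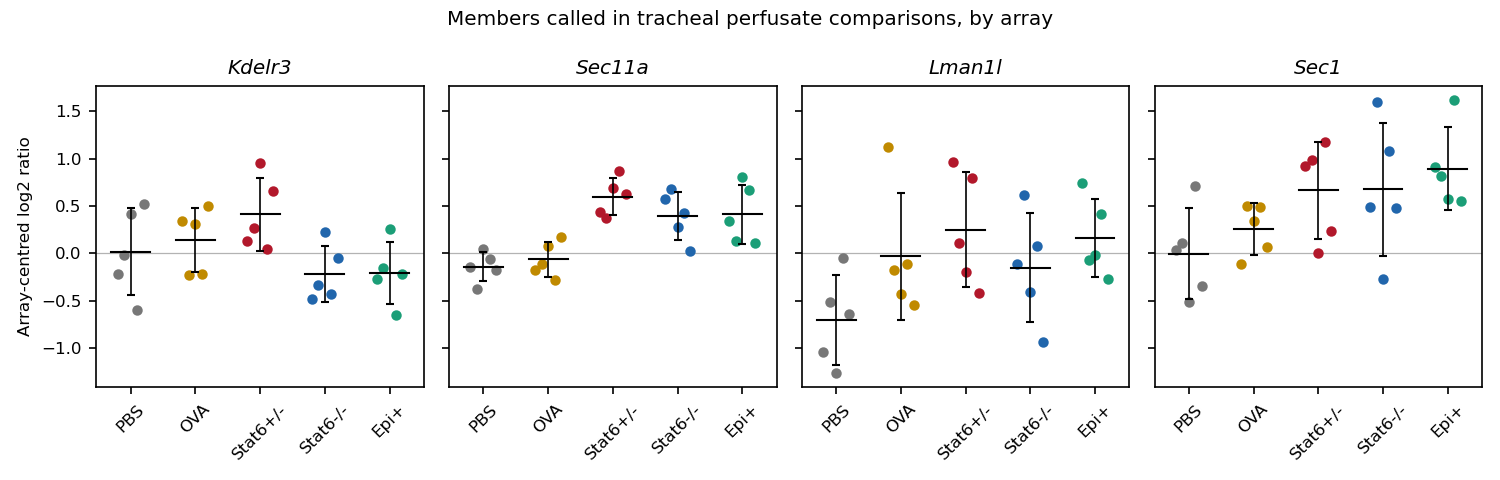
Array-centred log2 ratio on each perfusate array (points), with the mean and SD of 5 arrays (bars), for the 4 members called in a perfusate comparison. Kdelr3 is highest in Stat6+/- arrays (0.05 to 0.95), and all Sec11a values of PBS arrays lie between -0.37 and 0.05.

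The effect of the Stat6 allele differed between the tissues for 2 of 76 members (2.63%), a smaller share than over all 14459 genes and spots tested (4.5% called, 3.17% as lower). Both were p24 receptors. The interaction (the perfusate difference minus the whole lung difference) was -1.09 ± 0.26 for Tmed3 (adjusted p = 0.0113, limma) and -0.79 ± 0.22 for Tmed9 (adjusted p = 0.0338, limma). In perfusate Tmed3 read -0.09, 0.05, 0.46, 0.51 and 0.89 with the allele and -0.04, 0.13, 0.46, 0.70 and 0.78 without it, a difference of -0.04 ± 0.16. Tmed9 read -0.63, -0.26, -0.23, 0.08 and 0.40 with the allele and -0.37, -0.12, -0.08, 0.44 and 0.49 without it, a difference of -0.20 ± 0.16. Both pairs overlapped almost wholly, whereas the whole lung differences were 1.04 ± 0.22 and 0.59 ± 0.16, the second of them not called (adjusted p = 0.0602, limma). The 2 tissues also differed in amplification of the RNA and in reference, which cannot be told apart from tissue.

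In that interaction 2 members were lower and 0 higher. It was below 0 for most, with 18 above 0 and a median of -0.39, against 51% and 0.02 over all, and 1 was higher and 17 lower at an unadjusted p under 0.05 (7.41% and 9.9% of all). As deposited, the median was 0.10 against 0.50 over all and no member was called. The calls were also lost under quantile normalization, centring with scaling, no reference block, and without the Stat6-/- arrays low in Y-linked transcripts. The count was 4 without perfusate Stat6-/- array 14, and 1 without perfusate Stat6+/- array 4, 5, 7 or 8, perfusate Stat6-/- array 10, 11 or 13, whole lung Stat6+/- array 5 or whole lung Stat6-/- array 1, 2 or 4. For Epi+ against Stat6-/- the interaction gave 0 calls among 76 (0.104% of all; 1 higher and 0 lower unadjusted, 2.86% and 3.06% of all, limma), with 43 above 0 (51.8% of all) and a median of 0.05.

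**Figure D5:**
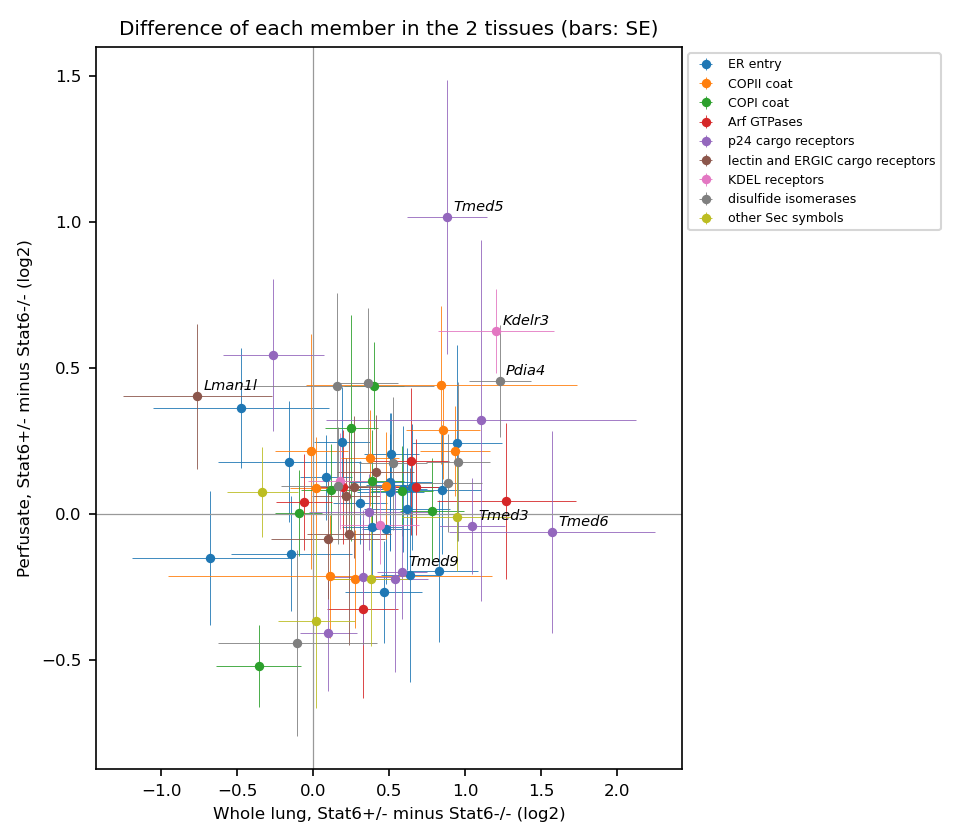
Log2 difference of each member between Stat6+/- and Stat6-/- arrays in whole lung (horizontal) and perfusate (vertical), with SE bars and colours by role. Tmed3 and Tmed9 lie at 1.04 and 0.59 in whole lung and at -0.04 and -0.20 in perfusate, and most members lie right of 0.

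The ovalbumin groups gave 0 calls among the members in either tissue. In whole lung, 0 of 77 were called (1.94% of all 15953 tested, limma; 4 higher and 4 lower unadjusted, 9.8% and 6.24% of all), with 34 above 0 (52% of all) and a median of -0.10. Those higher at an unadjusted p under 0.05 were Ssr4 (1.37 ± 0.44), Sec11c (1.04 ± 0.40), Spcs3 (0.74 ± 0.28) and Pdia4 (0.51 ± 0.23). Those lower were Sec63 (-0.91 ± 0.32), Copg1 (-0.77 ± 0.26), Copz2 (-0.70 ± 0.31) and Srprb (-0.49 ± 0.20). Their adjusted p ran from 0.152 to 0.296 (limma). Macrophage markers had 6 of 10 called higher in these OVA arrays and lay at 1.60 to 2.66, and mucous cell markers had 7 of 14 and lay at 1.47 to 2.11, against PBS levels of -0.11 to 0.79 and -0.28 to 0.45. Plasma and B cell markers had 3 of 11 called higher, and 1 of 20 ER chaperone genes was called higher. Eosinophil and mast cell (1.32 to 2.37 against -0.32 to 0.06) and T cell levels (0.13 to 0.80 against -0.99 to -0.30) were also higher than in PBS. Endothelial (-1.47 to -0.79 against -0.27 to 0.03) and club cell levels (-0.71 to -0.33 against -0.20 to 0.69) were lower. Alveolar type 2, basal, ciliated, neutrophil and fibroblast levels overlapped. The part of these cells was not tested. In perfusate, 0 of 76 were called (0.246% of all, limma; 2 higher and 1 lower unadjusted, 4.24% and 4.97% of all), with 41 above 0 (48.7% of all) and a median of 0.04. Pdia4 was among those higher, reading above every PBS array in all 5 OVA arrays (0.45 ± 0.19, adjusted p = 0.474, limma). Every OVA array lay above every PBS array for 2 of 76 members, 2.63% against 0.967% of all.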

How the data were processed

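Perfusate RNA went through 1 round of amplification and whole lung RNA was labelled without it, per the labels; the labels of 3 perfusate arrays do not state it. The deposited unit is the log2 of a ratio of channels, with 1 value for each spot, from a platform of 19152 spots (40 arrays) and another of 18240 spots (10 whole lung OVA and PBS arrays). The sources used here do not give the scanner, the background correction or the normalization. No depth or intensity was used, so the number of arrays limits the precision. Each array was centred on its median and spots of 1 gene were averaged. Gene names follow GEO's annotation of the platform, with older symbols replaced by those of RefSeq. Ergic2 rests on 2 accessions that disagreed (spot correlations of -0.20 and -0.31).

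Linear models were fitted in R 4.3.3 with limma 3.58.1 over all genes and unnamed spots with at least 3 values in every group: 25 perfusate arrays with a block for 5 reference preparations, 15 whole lung IL-13 arrays with a block for pools 3 and 4, 10 whole lung OVA and PBS arrays, and 40 arrays for the interactions. A fit handled missing values by leaving them out, with none imputed. Calls had a Benjamini-Hochberg adjusted p under 0.05 over the whole table. The fit was tested on simulated data. Values per array are given for most called members, with ranges for Tmed9 and Spcs2 in whole lung and differences alone for Sec1. Others named come from the highest and lowest of each role and the 5 widest ranges over group means in each tissue. Not all of these are given for perfusate. Genes outside that rule (Srp54a, Ssr1, Pdia6, Erp27 by accession, the members with a promoter match, and members at an unadjusted p under 0.05 after ovalbumin) were chosen after their values were seen. The members, the roles, 5 pathway lists and 12 marker lists were chosen with earlier results of these data known. An alternative without all arrays low in Y-linked transcripts was chosen after seeing the data. The alternative without such Stat6-/- arrays also rests on arrays picked by their Y-linked values in these data, since the labels do not mark them. The others were centring, scaling, quantile normalization, filters, blocks, array weights and arrays left out.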

Additional observations from a re-analysis of the deposited data

Results flagged for a closer look

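The gap between the highest or lowest array and the next, over the range of its group, was large for 8 of 150 groups of arrays of the called members, and chance flags about 1 in 20 groups (5%). In whole lung PBS, Lman1l read -1.48 on array 1 against -0.16 for the next lowest, Sec11a -0.42 on array 1 against -0.03, and Pdia3 -0.67 on array 4 against 0.21. In whole lung OVA, Sec24d read 0.74 on array 5 against -0.32 for the next highest. In whole lung Stat6+/-, Tmed5 read -0.40 on array 4 against 0.82 for the next lowest. In perfusate OVA, array 28 was high in Lman1l (1.13 against -0.11) and Sec61g (-0.31 against -0.75). In Epi+ perfusate, Pdia3 read 0.34 on array 18 against 1.26 for the next lowest.

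The difference between Stat6+/- and Stat6-/- arrays was smaller in perfusate than in whole lung for Tmed3 (interaction -1.09) and Tmed9 (-0.79), by the interaction term of the fit. These are 2.63% of the members, against 4.5% of all genes and spots called, and the whole lung difference of Tmed9 was itself not called.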

How the results depend on the processing

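Counts of called members of 0 in the main setting stayed at 0 under all alternatives for Epi+ against Stat6-/- in both tissues, their interaction, and OVA against PBS in both tissues. As deposited, the counts for the other comparisons (1 for perfusate Stat6+/- against Stat6-/-, 3 and 2 for Stat6+/- and Epi+ against PBS, 6 and 9 for whole lung Stat6+/- against Stat6-/- and Epi+, 2 for the interaction) were all 0, and the fit of only the groups compared gave 0, 0, 0, 1 and 0 for the first 5. Without the reference block they were 0, 1, 0, 1, 1 and 0. Quantile normalization gave 2, 11, 4, 3, 0 and 0, and 2 for Stat6-/- against PBS. Centring with scaling gave 12 for Stat6+/- against PBS, 1 for Stat6-/- against PBS, and 3, 0 and 0 for the last 3. Array weights gave 2, 11, 7, 13 and 2 for the first 5, 1 for perfusate Stat6+/- against Epi+ and 2 for Stat6-/- against PBS. Genes with a value on every array, which leaves fewer genes tested, gave 2, 6, 14 and 15 for perfusate Stat6+/- against Stat6-/- and PBS and the 2 whole lung comparisons, and 1 for Stat6-/- against PBS. Requiring 2 arrays per group gave 4 for whole lung Stat6+/- against Epi+, and averaging by accession, with each gene taken at its accession of lowest p, gave 2 for perfusate Stat6+/- against Stat6-/-, the added one being Erp27, lower. Without the Stat6-/- arrays low in Y-linked transcripts, which leaves fewer samples, the counts were 0 for perfusate Stat6+/- against Stat6-/-, 1 for whole lung and 0 for the interaction. Without all arrays low in these transcripts, an alternative chosen after seeing the data, the 6 counts were 0, 7, 1, 1, 4 and 0. Leaving out 1 array at a time gave 0 to 2, 1 to 8, 1 to 5, 2 to 10, 1 to 9 and 1 to 4 for the 6 comparisons and 0 to 6 for Stat6-/- against PBS. With a replicate block in whole lung the counts were 0 and 0 for Stat6+/- against Stat6-/- and Epi+ (0 and 0 for Epi+ against Stat6-/- and for OVA against PBS). In the IL-13 groups, deviations of 12 same-numbered pairs of arrays correlated at -0.58 to 0.40 (median 0.12). Those of 63 other pairs correlated at -0.55 to 0.65 (median -0.11). In OVA and PBS arrays the medians were -0.11 for 4 same-numbered pairs and 0.02 for 21 others. With so few pairs and overlapping ranges, these values cannot decide whether the numbers pair the arrays. Of 525 values of called genes under alternatives, 272 kept direction and call, 253 kept direction and lost the call, and 0 reversed. The cause of these moves was not tested where none is named. The share of all genes and spots called under each alternative is not given here. The counts under alternatives therefore do not show whether the members moved more than the whole table.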
